A study of Homo sapiens with 12 samples.

Results

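The comparison set 3 arrays of 22Rv1 cells given a small molecular inhibitor for 4 h against 3 arrays of vehicle-treated 22Rv1 cells, 6 of the 12 arrays of the series. 22Rv1 is an established human prostate carcinoma cell line, and the cells were grown in RPMI-1640 medium with serum and antibiotics. The series title names ONECUT2, a homeodomain transcription factor, as the inhibited protein. The dose and the vehicle are not given in the sources used here, and the vehicle arrays carry no time. RNA was measured on Affymetrix U133 Plus 2.0 arrays, on which a probe set is a group of short probes for 1 transcript or a few related ones. Of 54675 probe sets, 41091 named 1 gene each, 19775 genes in all. A gene was read on its probe set with the highest mean, termed its brightest, and 12635 genes with a mean log2 signal of at least 2.11 were tested. The labels do not say whether replicates came from separate cultures, and the p-values below therefore reflect array-to-array spread alone, part or all of which may be technical.

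Immediate early genes are transcribed within minutes of a signal and need no new protein for their induction. Genes that respond over the next hours in epithelial cells commonly include inhibitors of growth factor and MAP kinase signalling, stress-response enzymes, cytoskeletal genes and secreted factors. Transcripts with short half-lives can also fall within hours once their synthesis slows. The genes described here are those outside a list of 46 immediate early genes. Of the 40 members of that list that were tested, 8 rose and 1 fell at 4 h, and they are not taken further. KLF6, ATF3, MAFF and EGR1 are in it.

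At 4 h, 49 genes outside the immediate early list changed, 34 up and 15 down (limma, Benjamini-Hochberg adjusted p below 0.05; 56 up and 14 down under quantile normalisation). When all probe sets of a gene were averaged instead, 24 rose and 28 fell, and 30 of the 49 were among them. With the 6 h and 16 h arrays left out of the fit, 28 rose and 5 fell. These held 30 of the 49, and only 4 of the 15 that fell. The 49 were 0.389% of such genes, against 0.459% of all 12635 genes tested, of which 0.332% rose and 0.127% fell. For all 49, every array at 4 h lay outside the range of the vehicle arrays. The same held for 18.3% of all genes, 9.21% with higher and 9.1% with lower 4 h arrays; the 49 were called on these arrays, which nearly fixes that they do not overlap. In RNA from a whole culture, fewer cells of a type and less RNA per cell cannot be told apart. The changes were small: only HMOX1 rose and only BCL7A fell by 2-fold or more. Of the 49 genes 19 belonged to a function list and 30 to none, so the groupings by role below were made after the calls and carry no test beyond the list counts given. The risers included an enzyme of heme breakdown, an EGF receptor inhibitor, a pair of MAP kinase phosphatases, 2 adhesion and cytoskeleton genes, and the transcription factors ELF3 and ESRRG. The genes that fell included a cytochrome P450, 2 secreted regulators of growth and lipid handling, and the prostate factor SPDEF.

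RefSeq promoter windows of 300 bases, from 250 bases before to 50 bases after the start (GRCh38.p14), were at hand for 39 of the 49 genes, 29 risen and 10 fallen. The ONECUT core ATTGAT, searched on both strands, was in 1 of the 29 and 1 of the 10, and in 6.4% of all 27305 windows. The cyclic AMP and ATF response element TGACGTCA, which reads the same on both strands, was in 3 of the 29 (DUSP8, STK38L and ZBTB21) and 0 of the 10, and in 1.98% of all windows. The core of the antioxidant response element was in 11 and 5, and in 42.52% of all. The aryl hydrocarbon receptor core GCGTG was in 14 and 4, and in 36.33% of all. The sterol regulatory element TCACNCCAC was in TIPARP alone of the 39, and in 1.15% of all. Both windows that hold the ONECUT core, and the windows of the pair of genes with the larger rises among those with TGACGTCA, are shown 5′ to 3′ on the gene's strand, with these motifs in capitals (the ONECUT core may read ATCAAT, its other strand). In DUSP8 a TGACGTCA overlaps a match to the antioxidant core.
DUSP10 (chr1:221742040-221742339, minus strand): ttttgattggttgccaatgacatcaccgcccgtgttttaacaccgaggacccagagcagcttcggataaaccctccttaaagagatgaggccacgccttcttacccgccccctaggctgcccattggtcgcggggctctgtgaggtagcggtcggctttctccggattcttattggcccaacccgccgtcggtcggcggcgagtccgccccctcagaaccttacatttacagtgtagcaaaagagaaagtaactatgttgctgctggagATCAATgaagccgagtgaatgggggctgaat
SLITRK1 (chr13:83882425-83882724, minus strand): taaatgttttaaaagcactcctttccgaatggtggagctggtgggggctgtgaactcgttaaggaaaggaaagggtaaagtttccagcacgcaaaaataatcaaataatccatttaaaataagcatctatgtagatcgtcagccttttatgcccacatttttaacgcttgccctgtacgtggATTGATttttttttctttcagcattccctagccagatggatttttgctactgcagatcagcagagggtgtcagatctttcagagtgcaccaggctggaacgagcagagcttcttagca
DUSP8 (chr11:1572222-1572521, minus strand): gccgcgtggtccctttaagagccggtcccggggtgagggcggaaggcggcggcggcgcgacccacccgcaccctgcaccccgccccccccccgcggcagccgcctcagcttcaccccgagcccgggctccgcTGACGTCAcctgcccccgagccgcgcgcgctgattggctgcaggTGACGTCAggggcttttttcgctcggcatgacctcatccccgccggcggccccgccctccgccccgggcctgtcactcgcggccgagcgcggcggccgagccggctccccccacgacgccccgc
ZBTB21 (chr21:42010311-42010610, minus strand): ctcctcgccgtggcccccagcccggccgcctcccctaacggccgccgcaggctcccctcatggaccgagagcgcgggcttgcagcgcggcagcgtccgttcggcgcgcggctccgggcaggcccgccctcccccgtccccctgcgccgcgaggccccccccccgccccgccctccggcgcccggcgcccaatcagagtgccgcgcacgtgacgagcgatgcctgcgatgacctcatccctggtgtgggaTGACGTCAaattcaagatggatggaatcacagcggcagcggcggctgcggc
Counted from the start site, the ONECUT core begins at base 20 in DUSP10 and at base -68 in SLITRK1, and TGACGTCA begins at bases -118 and -74 in DUSP8 and at base -1 in ZBTB21. A match is a description of these letters, not a binding site.

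HMOX1, the gene of heme oxygenase 1, which breaks down heme, had the largest rise. Its log2 signal (203665_at) was 4.10, 4.08 and 4.08 on the vehicle arrays and 5.16, 4.97 and 5.62 at 4 h, a 2.24-fold rise (log2 change 1.16, SE 0.14, limma adjusted p = 0.00324, with 3 arrays in each group here and throughout). The vehicle arrays lay within a narrow band and the 4 h array of replicate 3 stood highest. GDF15, a secreted cytokine of the stress response, went from 8.71, 8.72 and 8.79 to 9.58, 9.45 and 9.58 (1.74-fold, log2 SE 0.07, adjusted p = 0.000376). DNAJB4, a cytosolic co-chaperone of HSP70, read 7.46, 7.63 and 7.72 with vehicle and 8.14, 8.08 and 8.12 at 4 h (1.43-fold, adjusted p = 0.0428). No other member of the corresponding lists passed: HMOX1 was the 1 riser of 23 tested NRF2 antioxidant genes (median log2 change 0.03, against 0.00 over all tested genes), GDF15 the 1 riser of 31 amino acid and ATF4 stress genes (median 0.07) and of 22 p53 targets (median 0.04), and DNAJB4 the 1 riser of 18 cytosolic heat shock genes (median 0.05). In the ATF4 list, 12 of 31 genes had all 4 h arrays above the vehicle arrays and 0 had them all below, against 9.21% and 9.1% of all genes. Of its members, SESN2 and CHAC1 had log2 changes of 0.53 and 0.46 that did not pass (adjusted p = 0.227 and 0.169).

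**Figure D1:**
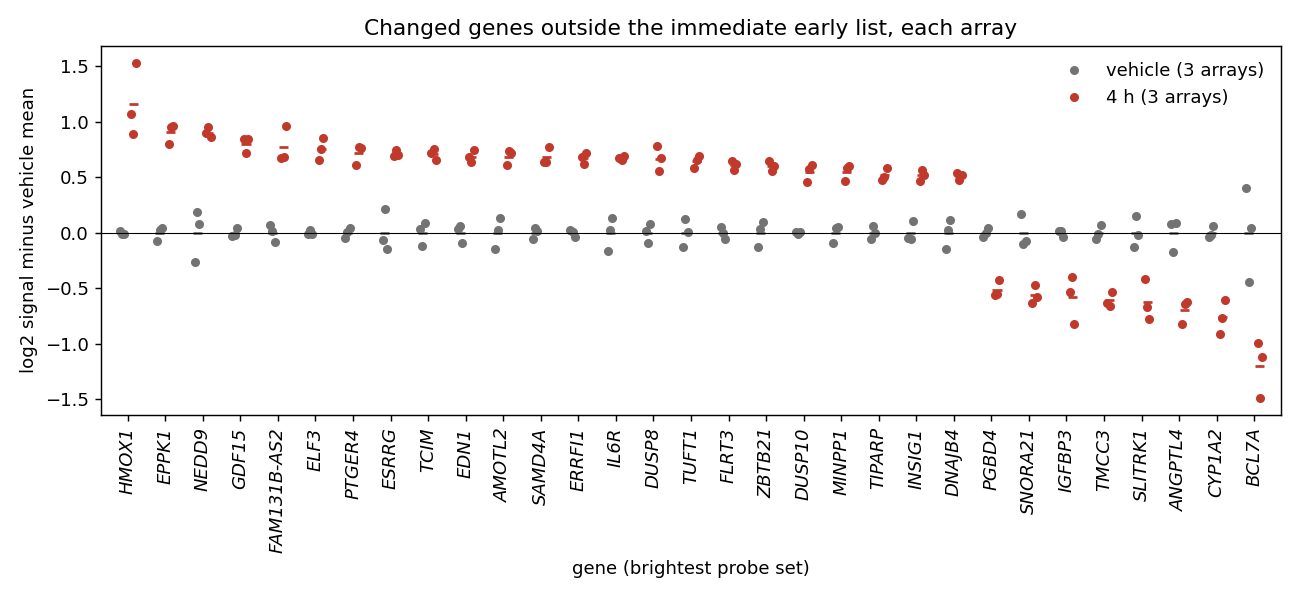
Log2 signal of each array minus the gene's vehicle mean (y axis) for the 31 genes outside the immediate early list that changed by at least 0.5 log2 units, ordered by change (x axis). Grey points are the 3 vehicle arrays, red points the 3 arrays at 4 h, and short bars their means; no gene has overlapping groups, HMOX1 spans the widest range among the 4 h arrays of the risers, and BCL7A has the widest vehicle spread.

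Aryl hydrocarbon receptor targets moved both ways. This ligand-activated receptor induces enzymes that metabolise aromatic compounds. TIPARP, an ADP-ribosyltransferase induced by the receptor that also limits it, read 7.68, 7.80 and 7.74 with vehicle and 8.21, 8.25 and 8.33 at 4 h (1.43-fold up, log2 change 0.52 ± 0.08 SE, adjusted p = 0.0192). CYP1A2, a cytochrome P450, went the other way, from 7.61, 7.62 and 7.70 to 6.73, 6.88 and 7.04 (1.69-fold down, log2 change -0.76 ± 0.09 SE, adjusted p = 0.00314). Its probe set 207608_x_at belongs to the _x_at class, which can bind several related transcripts, and the other CYP1A2 probe set (207609_s_at) lay near background, at 2.41, 2.27 and 2.27 and 2.41, 1.85 and 2.10 (log2 change -0.20, adjusted p = 0.601). Of the 8 tested members, 1 rose and 1 fell, with a median of 0.17. CYP1A1, the most inducible enzyme of the family, had a log2 change of -0.30 (adjusted p = 0.268), and CYP1B1 one of 0.25 (adjusted p = 0.685).

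The risers included 3 genes grouped as inhibitors of growth factor and MAP kinase signalling. ERRFI1, whose protein binds and inhibits the EGF receptor, went from 8.78, 8.76 and 8.72 to 9.43, 9.37 and 9.48 (1.59-fold, log2 SE 0.09, adjusted p = 0.0062). Both groups were tight. DUSP10, a phosphatase of the stress-activated kinases p38 and JNK, read 7.72, 7.71 and 7.72 and then 8.18, 8.29 and 8.33 (1.46-fold, adjusted p = 0.00324). DUSP8, a phosphatase of the same kinases, rose from a lower level, 4.56, 4.45 and 4.62 to 5.32, 5.10 and 5.22 (1.59-fold, adjusted p = 0.0192). The promoters of both phosphatase genes are among those shown above. Of the 10 tested EGF receptor genes and ligands ERRFI1 alone passed (median 0.07), and of 20 tested ERK feedback genes, a list that holds sprouty and ETS factors but not DUSP8 or DUSP10, 0 passed (median 0.03).

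A group of 4 further risers were genes of receptors, surface proteins or ligands. PTGER4, a receptor for prostaglandin E2, read 7.44, 7.49 and 7.53 with vehicle and 8.09, 8.26 and 8.24 at 4 h (1.64-fold up, log2 change 0.71 ± 0.10 SE, adjusted p = 0.00661). EDN1, the precursor of the vasoactive peptide endothelin 1, went from 6.64, 6.67 and 6.51 to 7.29, 7.24 and 7.35 (1.61-fold, adjusted p = 0.0192). IL6R, the interleukin 6 receptor, rose at a low level, from 3.69, 3.88 and 3.99 to 4.53, 4.51 and 4.54 (1.59-fold, adjusted p = 0.0415). FLRT3, a leucine-rich repeat membrane protein of cell adhesion and FGF signalling, read 8.91, 8.85 and 8.80 and 9.50, 9.42 and 9.47 (1.53-fold, adjusted p = 0.0192). In all 4 of these genes every array at 4 h was above every vehicle array, as in 9.21% of all genes. The call on these same arrays nearly fixes this. PTGER4 was the 1 riser of 11 tested prostaglandin enzymes and receptors (median 0.04).

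IGFBP3, which binds insulin-like growth factors outside the cell, fell from 8.78, 8.78 and 8.73 to 8.24, 8.37 and 7.95 (1.5-fold, log2 change -0.58 ± 0.09 SE, adjusted p = 0.0192). The 4 h array of replicate 3 was the lowest and the vehicle arrays lay together. ANGPTL4, a secreted inhibitor of lipoprotein lipase, fell from 4.42, 4.17 and 4.43 to 3.52, 3.70 and 3.72 (1.62-fold, adjusted p = 0.0189). SLITRK1, a transmembrane protein of neuronal adhesion, fell from 4.96, 5.24 and 5.07 to 4.67, 4.42 and 4.31 (1.54-fold, adjusted p = 0.0192). IGFBP3 was the 1 gene that fell of 15 tested insulin-like growth factor signalling genes. The 1 riser there was FOXO3, a transcription factor restrained by AKT, at 7.49, 7.85 and 7.77 and then 8.15, 8.22 and 8.18 (1.39-fold, adjusted p = 0.0301). The list's median was 0.10.

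Of the 49 changed genes, 7 that rose and 2 that fell were grouped by roles in the cytoskeleton, adhesion or the Hippo pathway. EPPK1, epiplakin, which binds intermediate filaments in epithelial cells, went from 6.75, 6.85 and 6.86 to 7.62, 7.78 and 7.78 (1.87-fold, log2 change 0.90 ± 0.10 SE, adjusted p = 0.00314). NEDD9, a scaffold of focal adhesion kinase signalling, read 5.73, 6.17 and 6.07 with vehicle and 6.89, 6.94 and 6.85 at 4 h (1.87-fold, adjusted p = 0.0192). The vehicle array of replicate 1 was the lowest for NEDD9. AMOTL2, an angiomotin that holds the coactivator YAP out of the nucleus and is itself a YAP target, went from 6.21, 6.38 and 6.49 to 6.96, 7.09 and 7.07 (1.61-fold, adjusted p = 0.00394). TUFT1, tuftelin, read 7.53, 7.77 and 7.66 and then 8.23, 8.31 and 8.34 (1.56-fold, adjusted p = 0.0192). Smaller rises were seen in MYADM (1.4-fold), the microtubule minus-end protein gene CAMSAP2 (1.38-fold) and the NDR-family kinase gene STK38L (1.33-fold), with adjusted p = 0.0062, 0.0062 and 0.0062.

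Of 31 tested adhesion and cytoskeleton genes, 2 rose (EPPK1 and NEDD9) and 0 fell, with a median of 0.05. Integrin, actinin and tropomyosin genes were among the members that did not pass. Of 17 tested YAP and TEAD targets 3 rose and 0 fell (median 0.12): AMOTL2 and the immediate early members CCN1 and CCN2. The kinase gene LATS2 had a log2 change of 0.56 that did not pass (adjusted p = 0.197). KRT19, a keratin of simple epithelia, fell from 9.00, 9.05 and 9.10 to 8.63, 8.70 and 8.79 (1.27-fold, adjusted p = 0.0299), the 1 member of 18 tested keratin and junction genes to pass (median 0.02). GAS2L1, which links actin to microtubules, fell 1.3-fold (adjusted p = 0.0276).

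The changed genes of transcription factors are given next. ELF3, an epithelial ETS factor, rose from 8.00, 8.03 and 7.99 to 8.67, 8.76 and 8.86 (1.69-fold, log2 change 0.76 ± 0.09 SE, adjusted p = 0.00314). SPDEF, an ETS factor of prostate and secretory epithelium, fell from 8.87, 8.77 and 8.75 to 8.42, 8.32 and 8.29 (1.37-fold, log2 change -0.45 ± 0.08 SE, adjusted p = 0.0238). These 2 were the changed members of 18 tested epithelial and prostate lineage factors (median -0.06). ESRRG, the orphan nuclear receptor estrogen-related receptor gamma, rose at a low level from 3.73, 4.01 and 3.65 to 4.49, 4.54 and 4.50 (1.64-fold, adjusted p = 0.0062). ZBTB21, a zinc finger repressor, rose from 6.98, 7.14 and 7.20 to 7.76, 7.67 and 7.71 (1.52-fold, adjusted p = 0.00541). KLF7 and ZNF644 rose 1.39-fold and 1.35-fold (adjusted p = 0.0215 and 0.0359). RFX6, a factor of endocrine pancreas, fell near background, with vehicle arrays at 2.72, 2.64 and 2.66 and 4 h arrays at 2.23, 2.30 and 2.38 (adjusted p = 0.0238).

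A further 4 changed genes act on chromatin or RNA. BCL7A, a subunit of the BAF chromatin remodelling complexes, had the largest fall, from 6.06, 5.21 and 5.69 to 4.66, 4.17 and 4.53 (2.3-fold, log2 change -1.20 ± 0.19 SE, adjusted p = 0.0192). Its vehicle arrays spread over 0.85 log2 units, the array of replicate 2 being the lowest. It was the 1 member of 26 tested BAF genes to pass (median 0.04). SAMD4A, an RNA-binding repressor of translation, rose from 7.63, 7.72 and 7.70 to 8.32, 8.32 and 8.45 (1.6-fold, adjusted p = 0.00387). The RNA helicase gene DHX16 fell 1.31-fold (adjusted p = 0.0225). A probe set annotated to the small nucleolar RNA gene SNORA21 read 2.98, 2.71 and 2.74 and then 2.18, 2.34 and 2.23 (adjusted p = 0.0299), where the highest unspiked bacterial control, a measure of background, averaged 2.14 on the vehicle arrays and 1.99 at 4 h.

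A further 4 risers act in metabolism. INSIG1, which retains the sterol-sensing SREBP complex in the endoplasmic reticulum, rose from 9.45, 9.44 and 9.61 to 9.97, 10.06 and 10.02 (1.43-fold, log2 change 0.52 ± 0.09 SE, adjusted p = 0.0215). Of 19 tested sterol genes it alone passed (median 0.07), and HMGCS1 and MSMO1, enzymes of cholesterol synthesis, had log2 changes of 0.35 and 0.29 (adjusted p = 0.127 and 0.0851). LPIN1, a phosphatidate phosphatase of triglyceride synthesis, read 7.94, 7.94 and 8.04 and 8.27, 8.37 and 8.37 (1.29-fold up, adjusted p = 0.0278). With ANGPTL4 it made 1 rise and 1 fall among 26 tested fatty acid and glycerolipid genes (median 0.04). MINPP1, an inositol polyphosphate phosphatase, rose from 8.70, 8.84 and 8.84 to 9.26, 9.37 and 9.39 (1.46-fold, adjusted p = 0.00387). MAT2A, which makes S-adenosylmethionine, rose 1.4-fold (adjusted p = 0.0173).

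The remaining 9 changed genes were grouped with no other. TCIM, a small protein known as a regulator of WNT signalling, rose from 8.80, 8.64 and 8.85 to 9.48, 9.52 and 9.42 (1.64-fold, adjusted p = 0.00314). A probe set annotated to the antisense RNA gene FAM131B-AS2 rose from 5.44, 5.39 and 5.29 to 6.04, 6.05 and 6.34 (1.71-fold, adjusted p = 0.0192). TMCC3, an endoplasmic reticulum membrane protein, fell from 5.86, 5.91 and 5.99 to 5.29, 5.26 and 5.39 (1.52-fold, adjusted p = 0.00868). PGBD4, a gene derived from a transposase, fell near background from 2.93, 2.97 and 3.02 to 2.41, 2.42 and 2.55 (adjusted p = 0.00908). The mitotic entry kinase gene WEE1, the syntaxin gene STX3 and the ubiquitin ligase gene LNX2 rose 1.36-fold, 1.37-fold and 1.33-fold (adjusted p = 0.0278, 0.0225 and 0.0348). FAM110B and LRRC45, both of centrosomal proteins, fell 1.39-fold and 1.28-fold (adjusted p = 0.0299 and 0.0375).

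**Figure D2:**
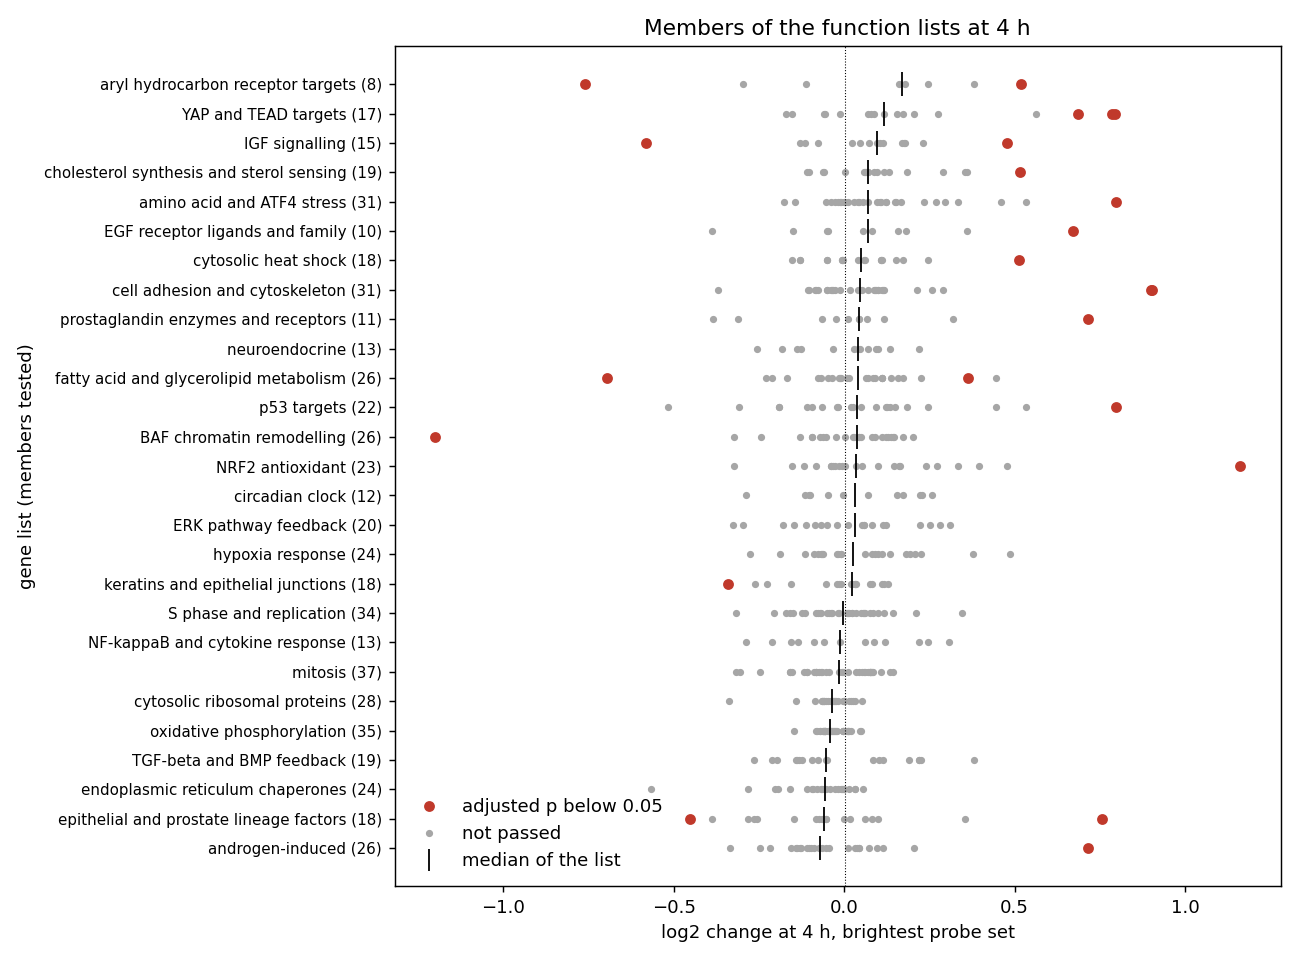
Log2 change at 4 h on the brightest probe set (x axis) of every tested member of 27 function lists (y axis, number of members in brackets), with members past the threshold in red, the others in grey, a black bar at each list's median and a dotted line at the median of all genes. Red points are few in every list; the YAP and TEAD list has 3, 2 of them nearly coincident, and the aryl hydrocarbon receptor, insulin-like growth factor, fatty acid and lineage factor lists have 1 on each side.

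Several lists held no called member. Of 24 tested endoplasmic reticulum chaperone genes 0 passed, with a median of -0.06, 4 positive changes and 7 members whose 4 h arrays all lay below the vehicle arrays (9.1% of all genes did). The lowest, HSP90B1, had a log2 change of -0.57 (adjusted p = 0.212). Of 28 cytosolic ribosomal protein genes and 35 oxidative phosphorylation genes 0 passed, with medians of -0.03 and -0.04. All 4 h arrays lay below the vehicle arrays for 6 and 8 of them, and above for 0 and 1. Of 34 S phase genes and 37 mitosis genes 0 passed (medians 0.00 and -0.01). Their 4 h arrays all lay below the vehicle arrays for 5 and 9 members, and above for 5 and 3. The 26 androgen-induced genes had a median of -0.07, and PTGER4 was the only one to pass; KLK2 and SLC45A3 had log2 changes of -0.33 and -0.25 (adjusted p = 0.472 and 0.287). No gene passed among 13 neuroendocrine, 24 hypoxia, 12 circadian, 13 NF-kappaB and 19 TGF-beta feedback genes, whose medians lay between -0.05 and 0.04. All 4 h arrays were lower for 7 androgen-induced and 6 TGF-beta feedback genes, and higher for 2 and 2. Such counts were therefore not particular to the chaperones.

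The gene of the named target, ONECUT2, read 6.75, 6.58 and 6.80 with vehicle and 6.74, 6.81 and 6.87 at 4 h, and the groups overlapped (log2 change 0.10, adjusted p = 0.775). ONECUT3 lay near background (adjusted p = 0.978) and ONECUT1 was below the filter, at 1.80, 1.74 and 1.76 and 1.74, 1.80 and 1.82. FOXA1 and HOXB13, factors of prostate identity, had log2 changes of -0.06 and -0.26, KLK3, which encodes prostate-specific antigen, one of -0.16, and PEG10 one of 0.09 (lowest adjusted p = 0.291). MYC, the 1 immediate early gene that fell, went from 10.18, 10.05 and 10.09 to 9.73, 9.77 and 9.62 (adjusted p = 0.0225). Its call held in 0 of the 6 fits with 1 array left out.

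The probe sets of a gene were next set against each other. A further fit took every named probe set that passed the filter, 22708 in all, and called 92 of them at 4 h, 50 up and 42 down (0.405%, with 0.22% up and 0.185% down; 65 up and 29 down under quantile normalisation). Of the 49 genes, 30 had at least 1 further probe set, termed second, and 19 were read on 1 probe set. The 30 genes had 44 second probe sets, of which 38 had a change of the same sign as the brightest and 6 of the other sign. Of the 44, 7 were called, each in the direction of the brightest, and 0 were called against it. Of all second probe sets, 0.278% were called lower and 0.119% higher. The 38 include changes near 0, such as 0.003 on probe sets of EDN1 and INSIG1. The share with the same sign was not computed over all genes. Of the 58 gene calls, 6 lost theirs when adjusted over probe sets: LRRC45, KRT19, LNX2, ZNF644, DNAJB4 and IL6R, with adjusted p of 0.051 to 0.065.

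The called pairs belong to EPPK1, ELF3, EDN1, IGFBP3, MAT2A and CAMSAP2. For MAT2A the second probe set lay near background, with means of 2.49 with vehicle and 2.98 at 4 h (limma adjusted p = 0.0479). EPPK1 agreed best: its 3 probe sets rose by 0.90, 0.88 and 0.67 log2 units, and all 3 were called. For ELF3 the 3 probe sets gave 0.76, 0.92 and 0.66 (adjusted p = 0.0053, 0.0156 and 0.0974). For IGFBP3 the second probe set had the larger fall, -0.89 against -0.58 on the log2 scale. At 16 h the second was at -0.01 from vehicle and the brightest at 0.56. For INSIG1 the 3 gave 0.52, 0.39 and 0.00, of which the brightest alone was called, and for GDF15 the second gave 0.55 (adjusted p = 0.0859). The 2 GDF15 probe sets parted at 16 h, with log2 changes from vehicle of 3.19 on the brightest, 221577_x_at, and -0.24 on the second.

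Other genes rested on 1 of their probe sets. For BCL7A the second probe set, 203795_s_at, read 4.71, 4.59 and 4.40 with vehicle and 4.50, 4.44 and 4.57 at 4 h, a change of -0.07 where the brightest gave -1.20. The difference between the 2 changes within arrays was 1.13 ± 0.23 SE (adjusted p = 0.0821). CAMSAP2 was called on 2 probe sets, but the third, 212763_at, gave -0.42 (adjusted p = 0.475). FLRT3 gave 0.61 and -0.02, IL6R 0.67 and -0.12, and SAMD4A 0.68 and 0.15 on a second probe set near background. For SPDEF 3 of 5 probe sets had negative changes, with -0.45, -0.39 and -0.35, of which the first was called, while the 2 dimmest gave 0.06 and 0.10.

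**Figure D3:**
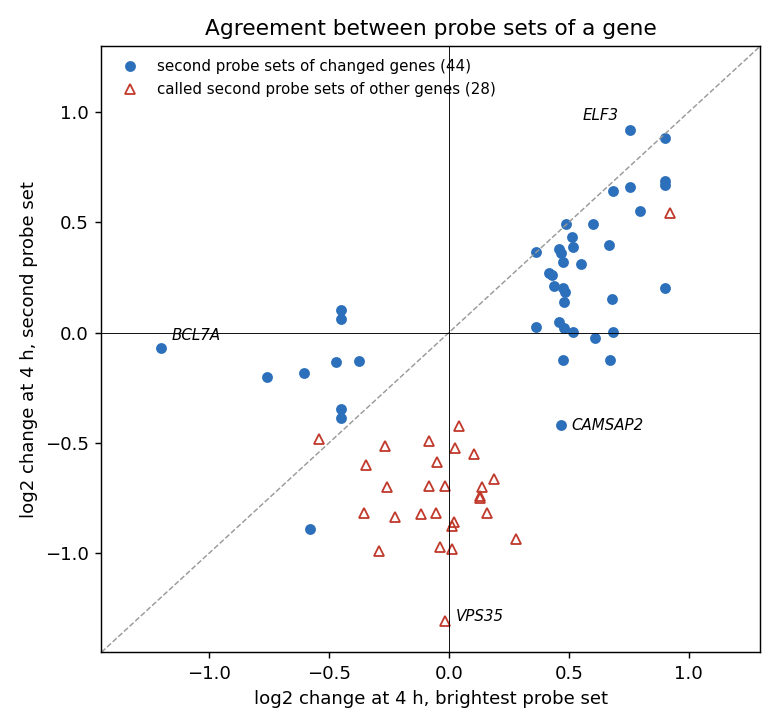
Log2 change at 4 h on a gene's brightest probe set (x axis) against that on a second probe set (y axis); the dashed line marks equal change. Blue points are the 44 second probe sets of the changed genes, most of them between the axis and the line; red triangles are 28 second probe sets called at 4 h whose gene was not called, of which 27 fell while their brightest probe sets lay between -0.54 and 0.28, and 1, of CREB5, rose.

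A second pattern appeared only in the fit over probe sets. Apart from 2 probe sets of the immediate early gene JUN, which rose, 28 second probe sets were called whose gene was not, and 27 of them fell, each in a different gene (0.278% of all second probe sets fell and 0.119% rose; of the brightest, 0.111% fell and 0.301% rose). On the 27 the median log2 change was -0.74, and on the brightest probe sets of the same genes it was -0.02, with 15 of 27 below 0. That none of these brightest probe sets was called follows from how the 27 were chosen. The brightest was set by the mean over all arrays, treated ones included. With vehicle alone, RIF1 and RHOBTB2 had the higher mean on the second probe set, 7.27 against 6.57 and 3.15 against 2.68. LSM12, an RNA-binding protein, had 5.39, 5.23 and 5.19 with vehicle and 4.56, 4.54 and 4.26 at 4 h on 212529_at (-0.82 ± 0.10 SE, adjusted p = 0.0053), and -0.05 on its brightest. VPS35, a subunit of the retromer, which sorts endosomal cargo, had 6.82, 5.85 and 6.42 and then 5.32, 4.80 and 5.05 on 222387_s_at (-1.31), with -0.02 on its brightest. TXNIP, the thioredoxin-interacting protein, went from 7.99, 7.44 and 7.73 to 7.03, 6.68 and 6.94 on 201009_s_at (-0.84), with -0.23 on its brightest. The importin gene KPNA3 (-0.88 and 0.01), the NuRD helicase gene CHD4 (-0.97 and -0.04) and SOX9 (-0.70 and -0.26) gave values of the same kind, with the second probe set first in each pair.

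On these 27 probe sets the median change was -0.83 at 6 h and -0.70 at 16 h, against the same vehicle arrays. The 3 vehicle arrays were above all 9 treated arrays for 25 of the 27 (2.7% of all probe sets); the 27 were chosen for vehicle above 4 h on these arrays, so only the 6 h and 16 h arrays add to this, against the same vehicle arrays. The vehicle array of replicate 2 was the lowest vehicle array in 22 of the 27, and in 40% of all second probe sets. Tested within arrays, the change of the second minus that of the brightest probe set was called for 0 of 10073 pairs (1364 had an unadjusted p below 0.05), and for the 27 it ran from -1.29 to 0.06, with a lowest adjusted p of 0.0802. The count rested on single arrays: the number of second probe sets that fell was 28 with all arrays, 296 without vehicle replicate 2, 4 without vehicle replicate 1 or 3, and 20, 5 or 1 without 4 h replicate 1, 2 or 3. With the 6 h and 16 h arrays left out of the fit it was 2, under quantile normalisation 17, with the replicate block 91 and with a trended and robust prior 127. The control probe set for 18S ribosomal RNA averaged 9.62 ± 0.29 (SD, n = 3) with vehicle and 8.98 ± 0.14 at 4 h, and the 3′ minus 5′ difference of the ACTB control was 2.80 ± 0.07 and 2.68 ± 0.09 (two-sided exact permutation tests, p = 0.1 and 0.2, where 0.1 is the lowest that 3 against 3 arrays can give). Their part in the result was not tested.

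**Figure D4:**
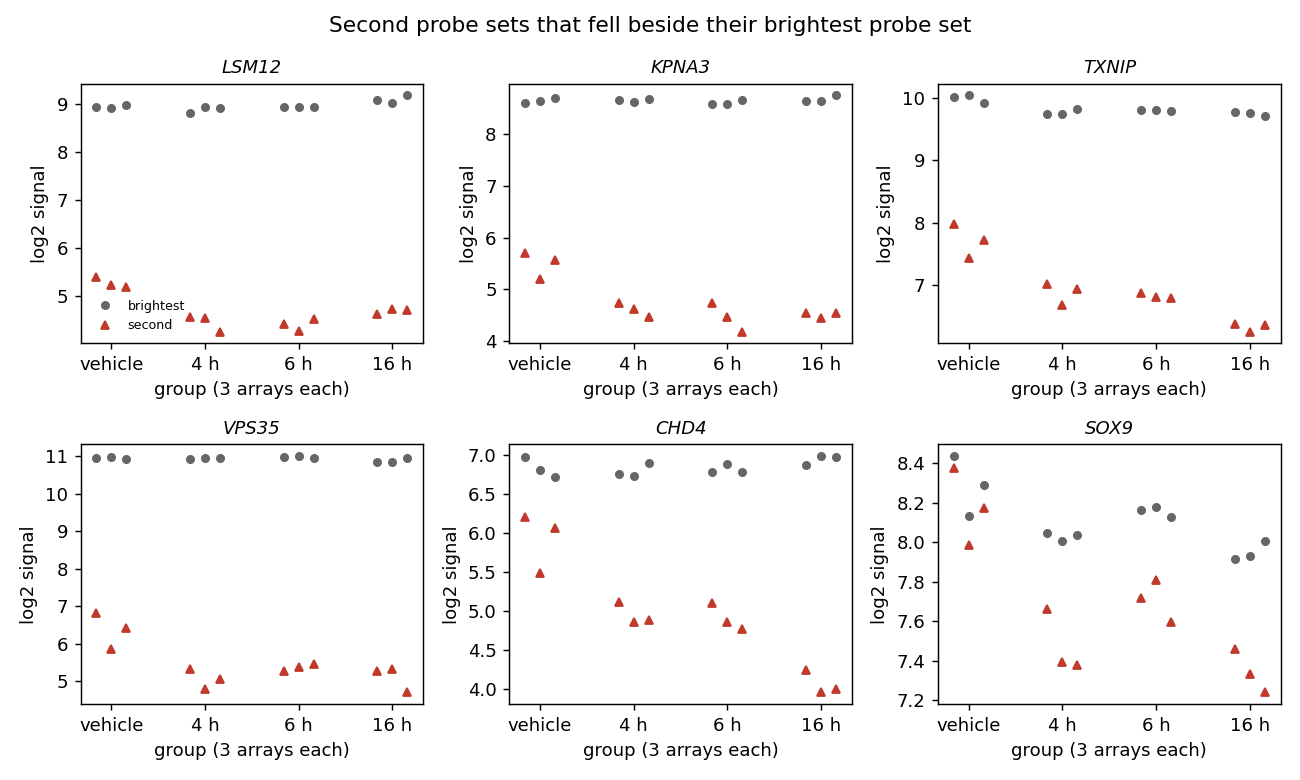
Log2 signal on every array (y axis, scaled for each panel) by group (x axis, 3 arrays each, in order of replicate) for 6 genes picked after their values were seen, with the brightest probe set as grey circles and the second probe set that fell as red triangles. The red triangles drop between vehicle and 4 h and stay below the vehicle arrays at 6 h and 16 h, while the brightest probe set was not called at 4 h in any of the 6 genes.

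Which of the 4 h changes differed at 6 h was tested by the 6 h arrays against the 4 h arrays. That comparison called 12 of 12635 genes (0.095%), and 7 of them were among the 49; it shares the 4 h arrays with the comparison that chose them, so that an extreme 4 h value enters both. Against vehicle, 0.0317% of genes were called at 6 h and 42.8% at 16 h, on the same vehicle arrays. The titles of the vehicle, 4 h and 6 h arrays hold a 10 of no stated meaning, which the 16 h titles lack. The groups may therefore differ in more than time. ESRRG had a log2 change from vehicle of 0.71 at 4 h, -0.16 at 6 h and 0.06 at 16 h, and the 6 h minus 4 h difference was -0.87 ± 0.10 SE (adjusted p = 0.00581). AMOTL2 had 0.69, 0.06 and 0.44 (adjusted p of the difference = 0.0246). DUSP10 had 0.55, 0.07 and 0.99 (adjusted p = 0.0246). INSIG1 had 0.52, -0.02 and -0.26 (adjusted p = 0.0483), and ZNF644 had 0.43, -0.07 and 0.36 (adjusted p = 0.0478). Of all 49 genes, 48 had a 6 h minus 4 h difference toward vehicle, a direction favoured by choosing them on the 4 h arrays. ESRRG, AMOTL2, DUSP10, INSIG1 and ZNF644, 5 of the 7 called, had risen at 4 h and were lower again at 6 h.

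The other two had fallen at 4 h and were higher again at 6 h. CYP1A2 had changes of -0.76 at 4 h, -0.16 at 6 h and 0.96 at 16 h (6 h minus 4 h, adjusted p = 0.0353), and SLITRK1 had -0.62, 0.03 and -0.61 (adjusted p = 0.0469). ANGPTL4 and TMCC3 had differences of 0.61 and 0.38 that did not pass (adjusted p = 0.0909 and 0.226). HMOX1 had changes of 1.16, 0.94 and 6.70, with a 95% interval of the 6 h minus 4 h difference from -0.53 to 0.08. MAT2A had changes of 0.49, 0.54 and -0.28, and BCL7A of -1.20, -1.03 and -1.41. The count of 12 was 0 with the 4 h and 6 h arrays alone, and it was 6, 2 and 4 without 4 h replicate 1, 2 and 3 and 4, 5 and 3 without 6 h replicate 1, 2 and 3.

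**Figure D5:**
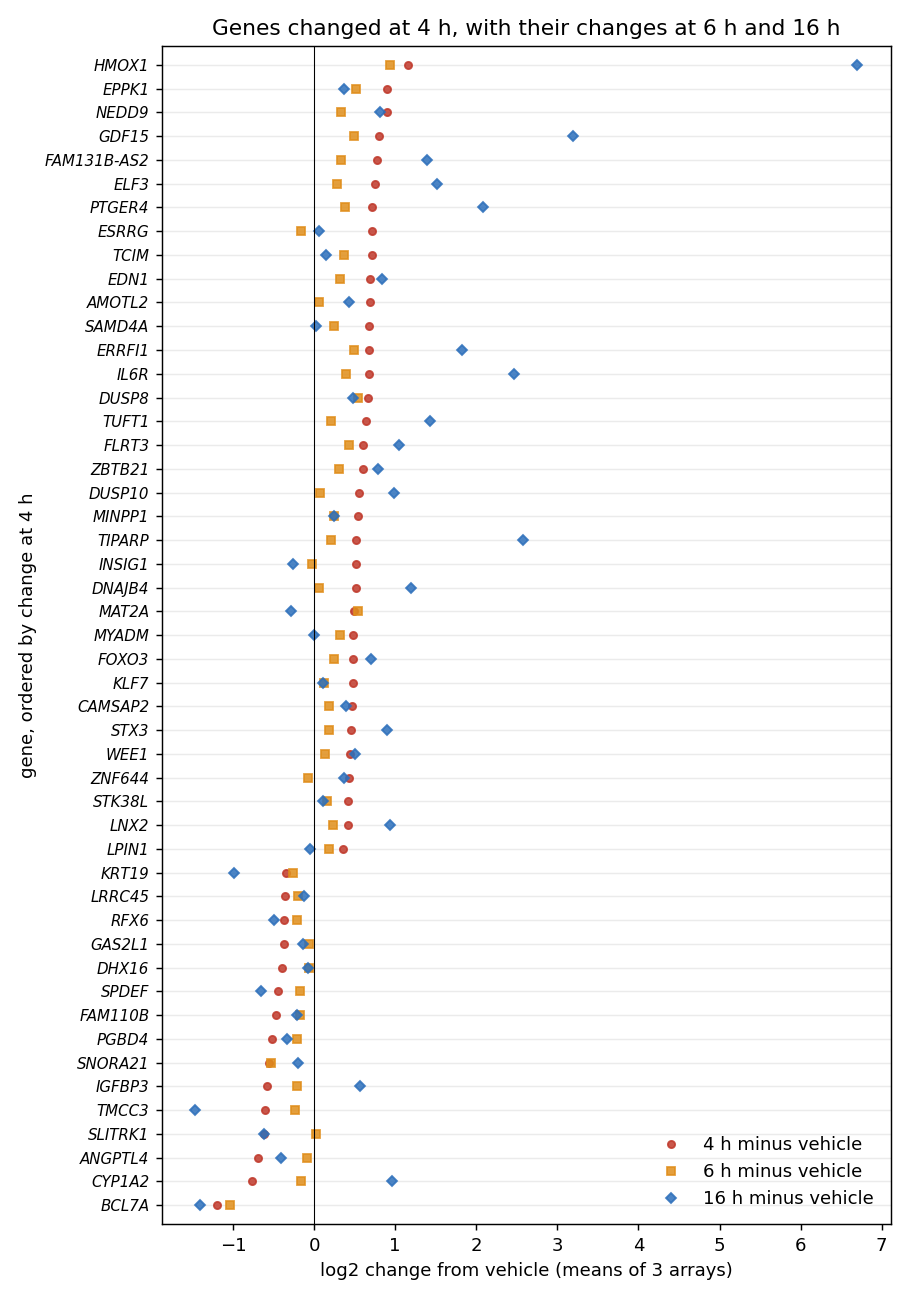
Log2 change from vehicle (x axis, means of 3 arrays) of the 49 genes at 4 h (red circles), 6 h (orange squares) and 16 h (blue diamonds), ordered by the change at 4 h (y axis); all 3 changes use the same vehicle arrays. ESRRG, AMOTL2, DUSP10 and INSIG1 lie near 0 at 6 h, and HMOX1 reaches 6.70 at 16 h. On their brightest probe sets, the only ones shown, CYP1A2 and IGFBP3 are below vehicle at 4 h and above it at 16 h.

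The calls differed in how far they depended on single arrays. Of the 49 genes, 17 passed with each of the 6 arrays left out in turn: the risers HMOX1, GDF15, EPPK1, ELF3, ERRFI1, DUSP10, PTGER4, TCIM, AMOTL2, MINPP1, ZBTB21, SAMD4A, CAMSAP2, MYADM, STK38L and ESRRG, and of the 15 genes that fell CYP1A2 alone. Of those 17 genes, 11 passed under every alternative setting, 10 that rose and 1 that fell. For CYP1A2, TCIM and MINPP1, among these 11, 1 of the settings was no check. It ranked _s_at and _x_at probe sets behind other classes, but these genes had none of another class tested. The same probe set was then read again, so the CYP1A2 call was not tested apart from its _x_at probe set there. With the mean of probe sets ESRRG had a log2 change of 0.04 (limma adjusted p = 0.92). CAMSAP2, SAMD4A, MYADM and STK38L also lost the call under that setting. Without vehicle replicate 1, 2 or 3 the counts outside the immediate early list were 26, 37 and 20 genes, of which 22, 25 and 18 were among the 49. Without 4 h replicate 1, 2 or 3 they were 20, 21 and 22, of which 19, 19 and 21 were among the 49. Of the 20 genes without vehicle replicate 3, 1 fell. All 49 genes kept their direction wherever an alternative gave them a value, in 825 of 833 combinations of gene and setting; the other 8 gave none.

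All 9 prostate luminal markers read were above the highest unspiked control on at least 1 array; KRT18, CDH1 and EPCAM had vehicle means of 11.29, 10.61 and 10.14, and TMPRSS2 and KLK3 of 3.22 and 4.14. The log2 of their summed signal was 12.69 to 12.73 with vehicle and 12.68 to 12.76 at 4 h. Of 7 fibroblast, 5 leukocyte and 5 endothelial markers 4, 3 and 2 exceeded the control on any array, with LUM at a vehicle mean of 4.10, and COL1A2, PDGFRB, VWF and CDH5 were below it. Arrays of a group correlated at 0.9970 to 0.9982 across genes, and vehicle with 4 h arrays at 0.9960 to 0.9973.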

How the data were processed

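Affymetrix U133 Plus 2.0 arrays of 22Rv1 cells, 3 in each of 4 groups, were analysed from the table the authors deposited, which holds log2 values for 54675 probe sets. GCRMA is named in the submitters' processing notes, with no version; this method adjusts for background from the probes' base content and forces a common distribution on the arrays, which hides any shift common to most genes. No scanner files and no genome build of the arrays were used here. Array medians lay between 2.10 and 2.15, and the number of arrays limits the precision.

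Names came from the platform annotation, updated through Entrez identifiers against RefSeq for 41037 of 41091 probe sets; 1801 probe sets with several symbols and 11777 without one were left out, as were 62 controls. One model over all 12 arrays was fitted with limma 3.58.1 in R 4.3.3 (8 residual and 3.69 prior degrees of freedom) with Benjamini-Hochberg adjustment of p over all 12635 genes, or over 22708 probe sets. In all, 1366 genes had an unadjusted p below 0.05 at 4 h. The fit was tested on simulated data with independent noise for each gene and array. That test does not cover spread shared by many probe sets of an array. Names were given to every gene changed at 4 h outside the immediate early list, with values on every array for changes of at least 0.5 log2 units and for changed list members, and in every case to ONECUT1, ONECUT2, ONECUT3, FOXA1, HOXB13, KLK3, PEG10 and MYC. The 32 lists and the comparison were chosen with earlier results of these data known. The test of second against brightest probe sets was added after seeing the data. Alternatives covered normalisation, filters, a floor at the control signal, samples in the fit, the variance prior, array weights, the replicate number, the probe set of a gene and each array left out. The labels do not say that equal replicate numbers pair the arrays. Deviations of same-numbered vehicle and 4 h arrays correlated at 0.0987, 0.0111 and 0.0433, and those of differently numbered arrays at -0.1296 to 0.1066. Such values cannot exclude that some probe sets share a replicate order. BCL7A, for example, was highest in replicate 1 and lowest in replicate 2 in both groups.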

Additional observations from a re-analysis of the deposited data

Results flagged for a closer look

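Of the genes changed at 4 h, 10 also differed between 6 h and 4 h in the same limma fit (adjusted p below 0.05), the difference being signed as 6 h minus 4 h on the log2 scale. Among genes outside the immediate early list the difference was -0.87 for ESRRG, -0.63 for AMOTL2, -0.54 for INSIG1, -0.50 for ZNF644 and -0.48 for DUSP10, all of which had risen, and 0.65 for SLITRK1 and 0.60 for CYP1A2, which had fallen. Among immediate early genes it was -0.82 for ATF3, -0.64 for EGR1 and -0.60 for MAFF. Each was chosen as changed on the same 4 h arrays that enter this difference.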

How the results depend on the processing

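The count of 58 changed genes was 90 with a filter at the 75th percentile, 136 with a trended and robust prior and 89 with array weights, and 25 to 42 with 1 array left out. Outside the immediate early list the count of 49 was 79, 121 and 76 under the same 3 settings, and 20 to 37 with 1 array left out. The count of 92 probe sets was 21 with the vehicle and 4 h arrays alone, 270 with the trended and robust prior and 197 with the replicate block, and 16 to 404 with 1 array left out, the highest without vehicle replicate 2. The count of 12 genes between 6 h and 4 h was 4 under median centring, 0 with the 4 h and 6 h arrays alone, 59 with the trended and robust prior, 33 with array weights, 0 with the mean of probe sets, and 2 to 6 with 1 array left out. With the replicate number as a block 84 genes changed, 73 of them outside the immediate early list, 48 of these among the 49; with any probe set of a gene, a setting added after seeing the data, the counts were 81 and 71. The cause of these shifts was not tested. The 49 genes kept their direction and lost the call in 238 of the 825 combinations of gene and setting that gave a value. Without a call in either case, ONECUT2 reversed to -0.10 and PEG10 to -0.34 with the mean of probe sets, and ONECUT3, at 0.02 with all arrays, ran from -0.11 to 0.18 with 1 array left out (-0.04 and -0.08 when vehicle replicate 2 or 3 was dropped, -0.11 when 4 h replicate 1 was). Signals near 2, the level of unspiked controls, limit what can be read from SNORA21, RFX6 and PGBD4.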
